A study of Sus scrofa with 8 samples.

Results

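The genes described here encode the machinery that carries proteins into mitochondria, measured in the longissimus dorsi, the long muscle of the back, of young pigs. Members were chosen by name: every gene of the deposited table called TIMM or TOMM with any ending, GRPEL with any ending, and PAM16, HSPA9, HSPD1, HSPE1, SAMM50, PMPCA and PMPCB. A mean of at least 1 FPKM (fragments per kilobase of transcript, scaled to the size of the library) over all 8 libraries was also required. The names matched 27 of 23235 genes in the table, and 26 passed the level, among 9821 genes that passed it in all. TOMM20L was the 1 match left out, at a mean of 0.215 FPKM, while the lowest member kept, TOMM34, stood at 1.86 FPKM. PAM16, TIMM23 and PMPCA were not analysed here, since no row carried these names. GRPEL1, TIMM9, TOMM5 and TOMM6 were not matched by name either, but by RefSeq position they fall on rows of the table. The rows at GRPEL1, TIMM9 and TOMM5 have an ID only, and the row at TOMM6 is named PRICKLE4. In this order they averaged 3.65, 3.70, 19.1 and 16.9 FPKM in melatonin pigs. In control pigs they averaged 4.14, 3.72, 22.9 and 16.3 FPKM. None of these rows was counted as a member. A row with an ID only, ENSSSCG00000033700, is called TIMM23B in the gene name table. It averaged 21.9 ± 2.74 FPKM in melatonin pigs and 24.8 ± 3.26 FPKM in control pigs (SD, n = 4 each), and was not counted as a member.

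The pigs were Duroc x Landrace x Yorkshire crosses, weaned and 28 days old when 12 of them were assigned at random, 6 to a group. After 5 days of adaptation the melatonin group received 5 mg/kg melatonin in 10 mL of sterile saline by gavage each day, and the control group received the same volume of saline, both for 23 days. All pigs shared 1 basal diet. The table holds 4 libraries of poly(A) RNA from each group. The labels do not name the pig behind each library, so the p-values measure the spread between these libraries.

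Most mitochondrial proteins are encoded in the nucleus, made in the cytosol and imported. The TOM complex receives them at the outer membrane. The SAM complex inserts barrel-shaped proteins there, small TIM chaperones escort hydrophobic proteins across the space between the membranes, and the TIM22 complex places carriers in the inner membrane. Proteins with a cleavable presequence pass through the TIM23 channel, are pulled in by a motor built on the chaperone HSPA9, lose their presequence to a processing peptidase and can fold inside the chaperonin of HSPD1 and HSPE1. Skeletal muscle uses this route to build the respiratory chain that supplies contraction.

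Libraries held 53471667 to 60629098 counts, and no pair of libraries agreed within sampling noise. Of 10 skeletal muscle markers, 8 had rows, and their summed level was 83404 to 107873 FPKM in melatonin pigs and 101135 to 117493 FPKM in control pigs. Markers of connective tissue stood apart in 2 melatonin libraries: their sum was 8601 FPKM in melatonin 1, 690 in melatonin 2, 2591 in melatonin 3 and 711 in melatonin 4, against 522 to 1004 FPKM in control pigs. All 10 of these markers were detected. Summed adipocyte markers ranged over 26.7 to 275 FPKM in melatonin pigs and 32.7 to 166 FPKM in control pigs. Summed macrophage markers ranged over 11.5 to 46.8 FPKM in melatonin pigs and 14.3 to 31.9 FPKM in control pigs. Summed endothelial markers ranged over 48.7 to 65.4 FPKM in melatonin pigs and 43.9 to 67.7 FPKM in control pigs. Summed erythroid markers ranged over 38.0 to 100.2 FPKM in melatonin pigs and 41.4 to 165 FPKM in control pigs, and summed Schwann cell markers over 19.4 to 36.7 FPKM in melatonin pigs and 18.3 to 32.6 FPKM in control pigs. No marker list lacked signal, and the part of these tissues in the values below was not tested beyond the libraries left out. In pieces of whole muscle, fewer cells of a type and less RNA per cell cannot be told apart.

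Members covered a 39.2-fold range of mean level, with 7 at 20 FPKM or more, 10 from 5 to under 20 FPKM and 9 under 5 FPKM. HSPA9 was the highest member in 8 of 8 libraries and stood 1.90-fold above the next, TIMM8B. HSPD1, the barrel of the chaperonin, followed at 37.2 FPKM, close to TIMM8B at 38.5 FPKM and above the TOM subunit TOMM7 at 31.8 FPKM. TOMM34, a mostly cytosolic co-chaperone, was lowest in 7 of 8 libraries and TIMM8A in the other. Between these ends most neighbours in the order differed by less than their spread, and the median of the member means was 11.3 FPKM. No member had fewer than 178 counts in any library. The members lie on 13 chromosomes, with 6 on chromosome 2, 4 on chromosome 9 and 2 on X.

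**Figure D1:**
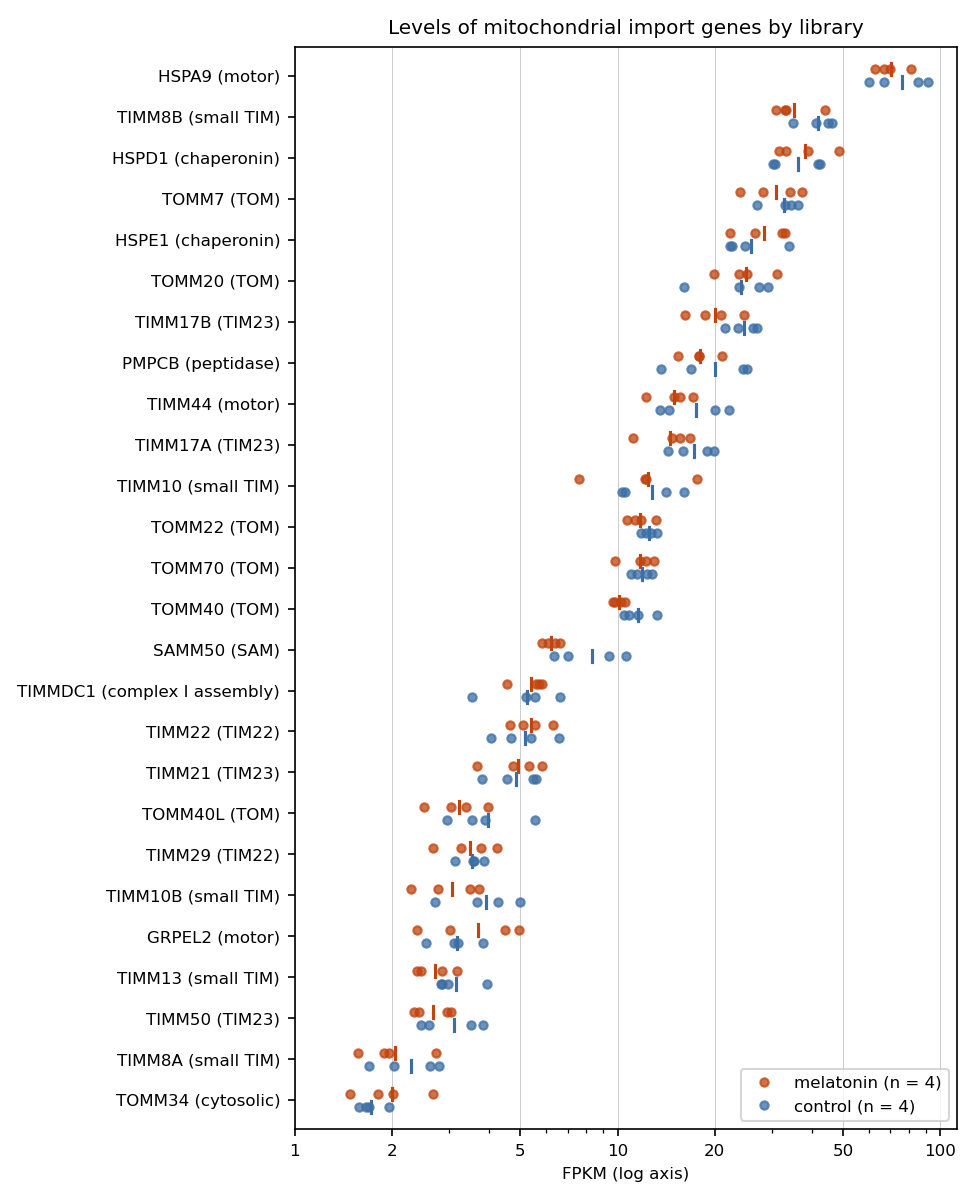
FPKM of the 26 import genes in each library, on a log axis, ordered by mean level. Points are libraries, melatonin above control within each gene, and vertical bars are group means. HSPA9 stands alone at the top at a mean of 73.0 FPKM, TOMM34 is lowest at 1.86 FPKM, and the points of the 2 groups overlap for every gene.

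The comparison asks whether import genes differ in the muscle of pigs given melatonin. No member passed the test, and 23 of 26 had a fitted level below control by small amounts. With edgeR's quasi-likelihood test on the counts, 0 of 26 members reached an adjusted p under 0.05, against 0 of all 9821 genes, or 0.0%, and the smallest adjusted p of a member was 0.453. DESeq2 called 0 members and 65 genes in all, or 0.662%. At an unadjusted p under 0.05 in edgeR, 3 members were lower (SAMM50, TIMM8B and TOMM40L) and 0 were higher. Among all genes 377, or 3.84%, were lower and 655, or 6.67%, were higher at that level. No member had groups that failed to overlap in FPKM in either direction, while 105 of all genes, or 1.07%, were lower in melatonin pigs without overlap and 111, or 1.13%, were higher. The median log2 fold change, melatonin over control, was -0.19 over the members and -0.00 over all genes tested, and 88.5% of members against 50.2% of all genes lay below control. On log2(FPKM + 1), tested with limma, 18 of 26 lay below control, or 69.2% against 38.2% of all genes, and the median was -0.09 over the members and 0.06 over all genes. All 8 skeletal muscle markers with rows lay below control on both scales. Their median log2 fold change was -0.19 in edgeR and -0.12 on log2(FPKM + 1), and their part in the values of the members was not tested. The number of members at an unadjusted p under 0.05 rested on single libraries. It was 0 without melatonin 1, melatonin 3, control 1 or control 3, was 1 without melatonin 2 or control 2, and was 6 without melatonin 4 or control 4.

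The precision limits how large a difference these libraries could hide. The 95% interval of the fold change lay within a factor of 2 of no difference for all 26 members, against 79.8% of all genes, and within a factor of 1.5 for 12 members, or 46.2% against 40.4% of all genes. Intervals reached 0.26 to 0.48 on the log2 scale to either side of the estimate. They held 0 for 23 members and lay below it for 3. The median coefficient of variation of FPKM among libraries was 17.1% in melatonin pigs and 19.0% in control pigs, and the SD was larger in control pigs for 15 of 26 members.

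**Figure D2:**
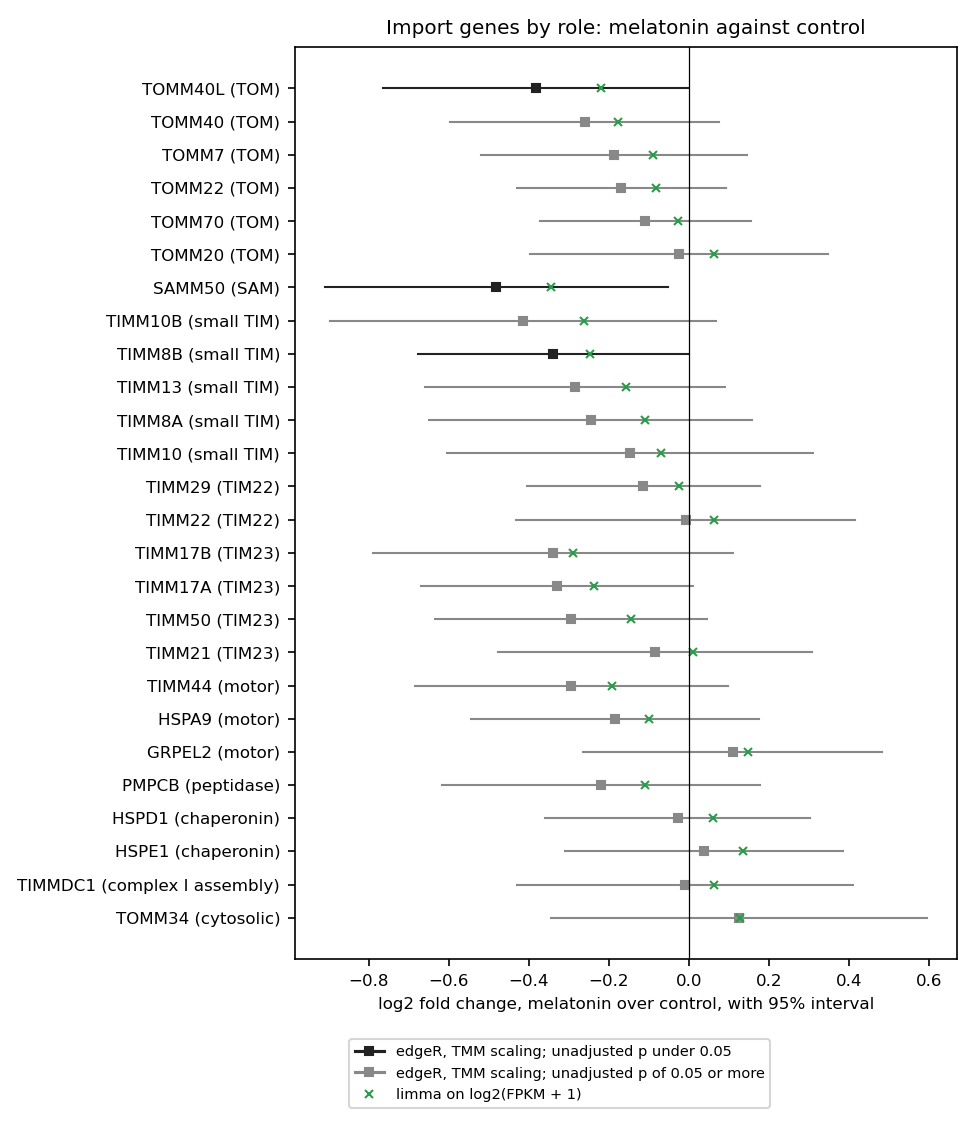
Log2 fold change of each import gene, melatonin over control, grouped by role. Squares and lines are the edgeR estimate with its 95% interval, black where the unadjusted p is under 0.05, and crosses are the limma estimate on log2(FPKM + 1). Of the squares 23 of 26 lie left of 0 and of the crosses 18 of 26, and only the lines of SAMM50, TIMM8B and TOMM40L stay left of 0.

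All 6 TOM genes had a fitted level below control, by a median log2 fold change of -0.18, and 1 of them had an unadjusted p under 0.05. On log2(FPKM + 1) 5 of 6 were below, and TOMM20 was not. TOMM40, the channel of the complex (chromosome 6, 51359595 to 51369908), had 10.2, 9.83, 9.67 and 10.6 FPKM in melatonin pigs, against 13.3, 10.5, 11.6 and 10.9 FPKM in control pigs. The melatonin values lay close together, the highest of them above the lowest control value. The log2 fold change of TOMM40 was -0.26 ± 0.15 (SE), with an adjusted p of 0.541 in edgeR, and -0.067 without melatonin 1 and melatonin 3. TOMM40L, a channel paralogue (chromosome 4, 89228554 to 89235347), had 3.38, 3.06, 3.98 and 2.51 FPKM in melatonin pigs, against 5.53, 2.95, 3.87 and 3.54 FPKM in control pigs. Control 1 was the highest and melatonin 4 the lowest, and the groups overlapped in FPKM. On TMM-scaled counts all 4 melatonin libraries lay below the control ones, as for 1 of 26 members and 2.02% of all genes, while 0 members and 2.25% of all genes were higher without overlap. For TOMM40L the log2 fold change was -0.38 ± 0.17 (SE), with an unadjusted p of 0.0492 and an adjusted p of 0.473 in edgeR. Without control 1, where the gene was highest, it was -0.21. TOMM40L lies opposite NR1I3 over its whole length, and NR1I3 stood at 0.277 FPKM. The receptors TOMM20, TOMM22 and TOMM70 and the small subunit TOMM7 had log2 fold changes of -0.19 to -0.03. That of TOMM7, -0.19, was -0.11 without control 2 and -0.29 without control 4. TOMM22, the central receptor, was among the most even members, at 11.8 ± 1.02 FPKM in melatonin pigs and 12.5 ± 0.598 FPKM in control pigs (SD, n = 4 each).

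SAMM50, the core of the SAM complex (chromosome 5, 5035896 to 5071265), had the lowest fold change of any member. It had 6.08, 5.81, 6.40 and 6.64 FPKM in melatonin pigs, against 10.6, 7.01, 9.41 and 6.34 FPKM in control pigs. The 4 melatonin libraries lay within a narrow band, control 1 and control 3 lay well above it, and control 4 fell inside it. The means were 6.23 ± 0.364 FPKM in melatonin pigs and 8.34 ± 2.00 FPKM in control pigs (SD, n = 4 each), a fitted fold of 0.716 with a 95% interval of 0.532 to 0.963. The unadjusted p was 0.0311 and the adjusted p 0.453 in edgeR, and DESeq2 gave an adjusted p of 0.299. The log2 fold change was -0.48 ± 0.19 (SE) with all libraries and -0.30 without melatonin 1 and melatonin 3, the libraries rich in connective tissue transcripts. It was -0.37 without control 1.

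All 5 small TIM genes had a fitted level below control (median log2 fold change -0.28), and 5 of 5 were below on log2(FPKM + 1) too. Their levels in FPKM were far apart. TIMM8B exceeded TIMM13, the partner of TIMM8A, by 13.1-fold in mean FPKM and its paralogue TIMM8A by 17.8-fold. Counts, which are not divided by transcript length, differed less. They were 2798 to 3859 per library for TIMM8B, 1158 to 1889 for TIMM13 and 498 to 808 for TIMM8A. TIMM8B (chromosome 9, 39787405 to 39790718) had 33.2, 32.9, 43.9 and 30.9 FPKM in melatonin pigs, against 44.9, 41.3, 46.1 and 35.0 FPKM in control pigs. Melatonin 3 lay among the higher control libraries and control 4 among the melatonin ones. Its log2 fold change was -0.34 ± 0.15 (SE), with an unadjusted p of 0.0485 and an adjusted p of 0.473 in edgeR. TIMM8B lies opposite the genes DLAT, SDHD and NKAPD1, at 24.9, 93.3 and 3.48 FPKM. The whole gene overlaps DLAT (3314 bases), and 124 bases overlap SDHD. The sources used here do not say whether counting used strand, so reads of these genes may not be separated, and the value of TIMM8B is uncertain.

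TIMM10B, a small TIM subunit bound to the carrier translocase, had 2.79, 3.498, 3.72 and 2.30 FPKM in melatonin pigs, against 3.68, 2.72, 4.97 and 4.27 FPKM in control pigs. The groups overlapped, with melatonin 4 lowest and control 3 highest. For TIMM10B the log2 fold change was -0.41 ± 0.22 (SE), with an adjusted p of 0.521 in edgeR, and -0.26 on log2(FPKM + 1). TIMM8A, which is mutated in the human deafness-dystonia syndrome, had 1.96, 1.57, 2.75 and 1.89 FPKM in melatonin pigs, against 2.62, 1.70, 2.79 and 2.03 FPKM in control pigs. Both groups spanned nearly the same range. For TIMM8A the log2 fold change was -0.25 ± 0.18 (SE), and -0.15 without control 3. TIMM10 and TIMM13 had log2 fold changes of -0.15 and -0.28, and that of TIMM13 was -0.18 without melatonin 1 and -0.19 without control 1. TIMM10 was the most uneven member among melatonin libraries, ranging over 7.61 to 17.6 FPKM, against 10.3 to 16.1 FPKM in control pigs.

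The genes of the carrier translocase were nearly level between groups. TIMM22, its channel, had 6.33, 4.65, 5.08 and 5.53 FPKM in melatonin pigs, against 5.40, 4.04, 6.58 and 4.66 FPKM in control pigs. The control libraries held both the highest and the lowest value. For TIMM22 the log2 fold change was -0.01 ± 0.19 (SE), with a 95% interval of -0.43 to 0.41. TIMM29, a subunit that supports the assembly of TIM22, had 3.78, 3.27, 4.23 and 2.69 FPKM in melatonin pigs, against 3.56, 3.14, 3.60 and 3.86 FPKM in control pigs, and here the melatonin libraries enclosed the control ones. It overlaps YIPF2 (5.19 FPKM) on the opposite strand by 113 bases.

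The 4 TIM23 genes had a median log2 fold change of -0.31, and none had an unadjusted p under 0.05. TIMM17A, a subunit of the channel, had 16.7, 11.13, 15.6 and 14.7 FPKM in melatonin pigs, against 19.0, 14.3, 19.9 and 15.9 FPKM in control pigs. Control 1 and control 3 were the highest, and the other libraries mixed. Its log2 fold change was -0.33 ± 0.15 (SE), with an unadjusted p of 0.0555 and an adjusted p of 0.481 in edgeR. Its paralogue TIMM17B, on X, had 16.2, 18.6, 20.9 and 24.7 FPKM in melatonin pigs, against 26.3, 21.4, 27.1 and 23.7 FPKM in control pigs. Of the melatonin libraries only melatonin 4 reached the control range. For TIMM17B the log2 fold change was -0.34 ± 0.20 (SE), with an adjusted p of 0.551 in edgeR. It was -0.20 without melatonin 1, -0.56 without melatonin 4 and -0.065 without melatonin 1 and melatonin 3. This gene overlaps PQBP1 (10.7 FPKM) on the opposite strand by 543 bases, so its value is uncertain in the same way. TIMM50, the receptor that hands presequences to the channel, had 2.96, 2.42, 3.04 and 2.33 FPKM in melatonin pigs, against 3.82, 2.61, 3.52 and 2.46 FPKM in control pigs. Its groups overlapped, and its log2 fold change was -0.29 ± 0.15 (SE), and -0.14 on log2(FPKM + 1). TIMM21, which in yeast links TOM to TIM23, averaged 4.90 ± 0.927 FPKM in melatonin pigs and 4.85 ± 0.844 FPKM in control pigs (SD, n = 4 each).

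The motor gene HSPA9 (chromosome 2, 140515254 to 140531857) had 66.8, 62.9, 81.2 and 69.6 FPKM in melatonin pigs, against 91.6, 59.9, 85.4 and 66.9 FPKM in control pigs. Control libraries held both ends of the range. Its log2 fold change was -0.18 ± 0.16 (SE), with a 95% interval of -0.54 to 0.17 and an adjusted p of 0.673 in edgeR. It was -0.11 without melatonin 1, -0.10 without control 1 and -0.076 without melatonin 1 and melatonin 3. TIMM44, which tethers HSPA9 to the channel, had 17.1, 12.2, 15.0 and 15.6 FPKM in melatonin pigs, against 22.1, 13.5, 19.98 and 14.4 FPKM in control pigs. As for SAMM50 and PMPCB, the highest values were in control 1 and control 3. For TIMM44 the log2 fold change was -0.29 ± 0.17 (SE), and -0.18 without control 1. GRPEL2, a nucleotide exchange factor for HSPA9, was 1 of 3 members with a fitted edgeR level above control (8 were above by mean FPKM), at 3.71 ± 1.20 FPKM in melatonin pigs and 3.17 ± 0.526 FPKM in control pigs (SD, n = 4 each), with a log2 fold change of 0.11 ± 0.17 (SE). It was -0.11 without melatonin 1 and melatonin 3.

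PMPCB, the catalytic subunit of the processing peptidase, had 17.8, 17.9, 21.1 and 15.4 FPKM in melatonin pigs, against 25.2, 13.6, 24.5 and 16.9 FPKM in control pigs. The control values fell on both sides of the melatonin range. For PMPCB the log2 fold change was -0.22 ± 0.18 (SE), with an adjusted p of 0.643 in edgeR. It was -0.11 without control 1, -0.12 without control 3 and -0.14 without melatonin 1 and melatonin 3.

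The matrix chaperonin was level between groups. HSPD1, known as HSP60, had 38.9, 33.2, 48.4 and 31.5 FPKM in melatonin pigs, against 41.8, 30.8, 42.4 and 30.3 FPKM in control pigs. HSPE1, known as HSP10, the lid of the same chaperonin, had 32.9, 26.6, 32.2 and 22.3 FPKM in melatonin pigs, against 34.0, 24.8, 22.3 and 22.6 FPKM in control pigs. In both genes the groups covered much the same range. The log2 fold change was -0.03 ± 0.15 (SE) for HSPD1, with a 95% interval of -0.36 to 0.30. It was 0.04 ± 0.16 (SE) for HSPE1, with a 95% interval of -0.31 to 0.38. On log2(FPKM + 1) both genes were above control, and the sign of neither is settled.

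HSPD1 and HSPE1 are head-to-head neighbours in these data. HSPD1 lies on the minus strand of chromosome 15 at 101360094 to 101373526, and HSPE1 on the plus strand at 101373976 to 101376144, with 449 bases between their starts. There were 368 such pairs within 1000 bases among 9498 tested protein-coding genes. Over 8 libraries of both groups, log2 FPKM of HSPD1 and HSPE1 had a Pearson r of 0.62 (exact permutation p = 0.1005, adjusted over 3 relations 0.151) and a Spearman rho of 0.40 (exact permutation p = 0.327, adjusted 0.490). Without the 2 libraries farthest from the median of HSPD1, r was 0.43, and within groups it was 0.62. On TMM-scaled counts r was 0.29 and rho 0.14. HSPD1 and HSPA9 had an r of 0.79 (exact permutation p = 0.0291, adjusted 0.0872), a rho of 0.64 (exact permutation p = 0.0962, adjusted 0.289), an r of 0.85 within groups and an r of 0.83 without the 2 libraries. On TMM-scaled counts this pair had an r of 0.69 (exact permutation p = 0.0560, adjusted 0.168) and a rho of 0.88 (exact permutation p = 0.00724, adjusted 0.0217). HSPD1 and the cytosolic chaperone gene HSPH1 had an r of 0.48 (exact permutation p = 0.243, adjusted 0.243), a rho of 0.17 (exact permutation p = 0.703, adjusted 0.703), an r of 0.49 within groups and an r of -0.17 without the 2 libraries. On TMM-scaled counts its r was 0.073 and its rho -0.14. None of the 3 relations in log2 FPKM reached an adjusted p under 0.05, and on TMM-scaled counts only the rho of HSPD1 and HSPA9 did. FPKM values of 1 library share its depth and composition.

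A share within a gene pair does not depend on how a library is scaled. TIMM17A made up 50.8%, 37.4%, 42.8% and 37.3% of summed TIMM17A and TIMM17B FPKM in melatonin pigs, against 41.9%, 40.0%, 42.4% and 40.2% in control pigs. TIMM17B was thus the higher gene in FPKM in 7 of 8 libraries, and melatonin 1 was the exception. In counts, which are not divided by transcript length, melatonin 1 held 1374 for TIMM17B and 859 for TIMM17A. The means were 42.1% ± 6.31 in melatonin pigs and 41.1% ± 1.20 in control pigs (SD, n = 4 each), with a two-sided exact permutation p of 0.886. Without melatonin 1 the difference, melatonin minus control, was -1.95 percentage points, and with all libraries it was 0.945. TIMM8A made up 5.45% ± 0.603 of TIMM8A and TIMM8B in melatonin pigs and 5.16% ± 0.816 in control pigs (SD, n = 4 each, exact permutation p = 0.486). Without control 2 this difference was -0.117 percentage points, against 0.288 with all libraries. HSPE1 made up 42.9% ± 2.72 of HSPE1 and HSPD1 in melatonin pigs and 41.7% ± 4.91 in control pigs (SD, n = 4 each, exact permutation p = 0.800), and HSPD1 was the higher gene in 8 of 8 libraries. Without control 3 this difference was -1.15 percentage points, against 1.26 with all libraries. Adjusted over the 3 pairs, each exact permutation p was 0.886.

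**Figure D3:**
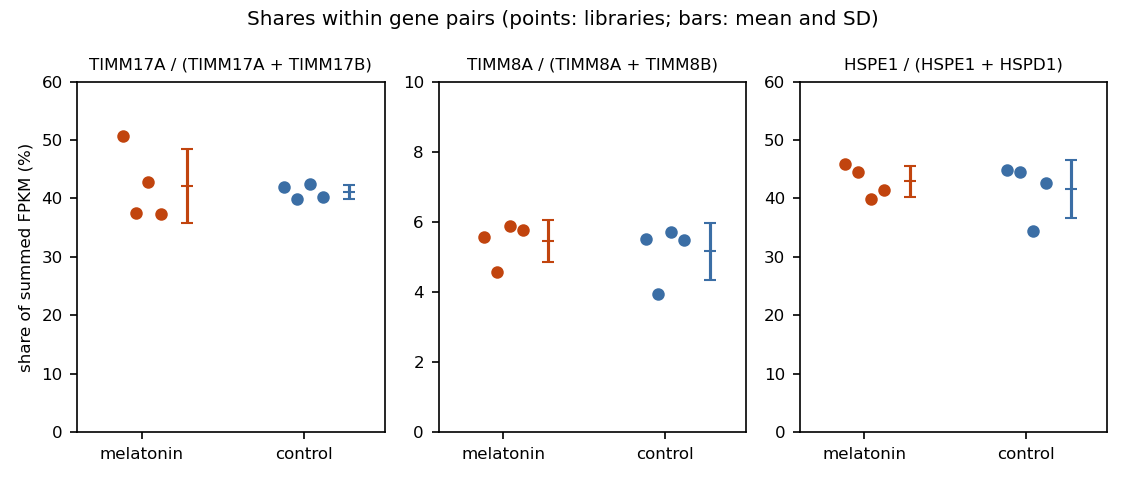
Share of the first gene in the summed FPKM of each pair, in percent, for TIMM17A with TIMM17B, TIMM8A with TIMM8B and HSPE1 with HSPD1. Points are libraries, and the bars beside them are the mean and SD of each group. The groups overlap in all 3 pairs, and melatonin 1 stands highest for TIMM17A at 50.8%.

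TIMMDC1 and TOMM34 carry import-like names and were set apart from the roles above. TIMMDC1, an assembly factor of respiratory complex I, had 5.59, 4.53, 5.82 and 5.72 FPKM in melatonin pigs, against 5.19, 3.53, 6.61 and 5.57 FPKM in control pigs. TOMM34 had 1.82, 1.49, 2.69 and 2.01 FPKM in melatonin pigs, against 1.70, 1.58, 1.66 and 1.96 FPKM in control pigs. Both genes overlapped between groups, with log2 fold changes of -0.01 ± 0.19 and 0.12 ± 0.21 (SE). Without them, 22 of 24 members lay below control (median log2 fold change -0.20).

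The summed level of the members varied within both groups. It was 396, 349, 448 and 352 FPKM in melatonin pigs, against 472, 351, 458 and 373 FPKM in control pigs. Melatonin 4 held the lowest FPKM of 12 members and 21.5% of all genes, and control 1 held the highest of 9 members and 9.94% of all genes. On TMM-scaled counts melatonin 1 was lowest for 12 members and 17.8% of all genes, and control 1 highest for 11 members and 11.0% of all genes. The mean log2 difference of the members from the control mean was -0.31, -0.16, -0.15 and -0.09 in melatonin pigs, against 0.11, -0.06, 0.11 and -0.16 in control pigs on TMM-scaled counts. Here 3 of 4 control libraries lay above every melatonin library, and control 4 lay among them. On log2(FPKM + 1) the same mean was -0.03, -0.20, 0.10 and -0.21 in melatonin pigs, against 0.15, -0.21, 0.14 and -0.08 in control pigs, and the groups overlapped more widely. The TMM factors were 1.18, 0.923, 1.19 and 0.866 in melatonin pigs and 1.02, 0.851, 1.01 and 1.02 in control pigs. They were highest in melatonin 1 and melatonin 3, the libraries with the most connective tissue transcripts. Without those libraries 22 of 26 members lay below control (median log2 fold change -0.12), and none had an unadjusted p under 0.05 in edgeR.

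Nuclear genes of the respiratory chain and the mitochondrial ribosome encode cargo of this machinery. All 32 complex I subunits tested lay below control (median log2 fold change -0.36), as did 33 of 34 subunits of complexes II to V, with a median of -0.41. Of all genes tested, 50.2% lay below control. At an unadjusted p under 0.05, 10 complex I genes and 11 genes of the other complexes were lower and 0 were higher. Among all genes 3.84% were lower and 6.67% higher at that level. Of 64 mitochondrial ribosomal proteins 56 lay below control, with a median of -0.17, while 7 were lower and 1 was higher at an unadjusted p under 0.05. None of these genes passed an adjusted p of 0.05 in edgeR or DESeq2. On TMM-scaled counts the mean log2 difference of complex I from the control mean ranged over -0.55 to -0.20 in melatonin pigs. In control pigs it was 0.28, 0.0015, 0.13 and -0.41. For complexes II to V it ranged over -0.54 to -0.20 in melatonin pigs, against 0.35, -0.04, 0.17 and -0.48 in control pigs. In both lists control 4 thus lay within the range of the melatonin libraries. On log2(FPKM + 1) the medians were -0.24 for complex I, -0.30 for complexes II to V and -0.07 for the ribosomal proteins, of which 46 of 64 lay below control. The median of the import genes, -0.19 in edgeR and -0.09 on log2(FPKM + 1), was nearer to that of the ribosomal proteins than to those of the respiratory complexes on both scales, a difference that was not tested.

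**Figure D4:**
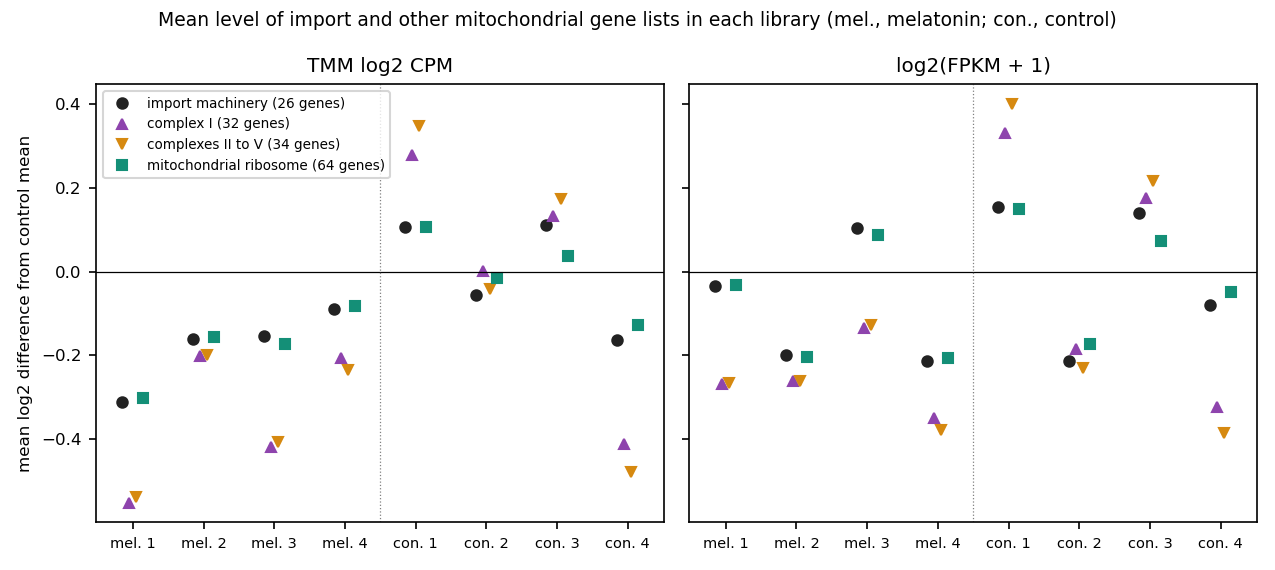
Mean log2 difference of 4 gene lists from their control mean in each library, on TMM-scaled counts (left) and on log2(FPKM + 1) (right), melatonin libraries left of control. On TMM-scaled counts the import genes range over -0.31 to -0.09 in melatonin pigs and -0.16 to 0.11 in control pigs. Complex I spreads more widely, over -0.55 to -0.20 in melatonin pigs and -0.41 to 0.28 in control pigs, and its groups overlap.

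Further import genes outside the name rule also lay mostly below control in edgeR, by a smaller median than the members. Their median log2 fold change was -0.11 in edgeR and -0.03 on log2(FPKM + 1), against -0.19 and -0.09 over the members. HSPA8 is in this list and also among the cytosolic heat shock genes below. Of 25 tested, 21 lay below control in edgeR (84.0%, against 50.2% of all genes) and 14 on log2(FPKM + 1) (56.0%, against 38.2% of all genes). At an unadjusted p under 0.05, 3 were lower and 0 higher, against 3.84% and 6.67% of all genes. CHCHD4, the receptor that folds and traps cysteine-rich proteins between the membranes, had 2.54, 2.01, 2.30 and 2.27 FPKM in melatonin pigs, against 3.13, 2.62, 3.73 and 2.83 FPKM in control pigs. The groups did not overlap, and its log2 fold change was -0.50 ± 0.19 (SE), with an adjusted p of 0.453 in edgeR. BCS1L, which inserts the Rieske protein into complex III, had 5.20, 5.16, 5.91 and 6.55 FPKM in melatonin pigs, against 8.36, 6.97, 7.24 and 7.73 FPKM in control pigs. These groups did not overlap either, and its log2 fold change was -0.47 ± 0.18 (SE), with an adjusted p of 0.453 in edgeR. Of the 25 genes, 2 were thus lower without overlap in FPKM and 0 higher, against 1.07% and 1.13% of all genes. MTX3, a metaxin, had 1.09, 0.873, 1.90 and 1.65 FPKM in melatonin pigs, against 1.82, 1.83, 2.77 and 3.41 FPKM in control pigs. Its groups overlapped slightly, and its log2 fold change was -0.90 ± 0.28 (SE), with an adjusted p of 0.440 in edgeR.

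Cytosolic heat shock genes were set beside HSPD1 and HSPE1, which also respond to heat in mammals. Of 13 tested, 8 lay above control (median log2 fold change 0.08). At an unadjusted p under 0.05, 2 were higher and 0 lower, against 6.67% and 3.84% of all genes. CHORDC1, an HSP90 co-chaperone, averaged 3.11 ± 0.805 FPKM in melatonin pigs and 2.16 ± 0.235 FPKM in control pigs (SD, n = 4 each), with an adjusted p of 0.453 in edgeR. HSF2, a heat shock transcription factor, averaged 6.79 ± 1.25 FPKM in melatonin pigs and 4.77 ± 0.940 FPKM in control pigs (SD, n = 4 each), with an adjusted p of 0.453 in edgeR. HSPH1 had 3.11, 1.49, 5.23 and 2.09 FPKM in melatonin pigs, against 1.79, 2.06, 1.31 and 1.72 FPKM in control pigs, with an adjusted p of 0.496 in edgeR. All 3 genes were highest in FPKM in melatonin 1 and melatonin 3, the libraries rich in connective tissue transcripts. Over all genes, melatonin 1 held the highest FPKM of 30.7% and melatonin 3 of 27.9%. The same libraries had the highest summed adipocyte markers, at 275 and 263 FPKM. The part of either set of transcripts was not tested. Of 7 genes of the mitochondrial stress response, such as ATF4, ATF5 and DDIT3, 6 lay below control, with 0 at an unadjusted p under 0.05. Their median log2 fold change was -0.44 in edgeR and -0.14 on log2(FPKM + 1). The mean log2 difference of this list from the control mean, on TMM-scaled counts, was -0.33, -1.04, -0.51 and 0.50 in melatonin pigs, against -0.13, 0.89, -0.15 and -0.61 in control pigs. Both groups thus varied widely, with control 2 the highest library, and DDIT3 averaged 7.91 FPKM in melatonin pigs and 7.89 FPKM in control pigs.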

How the data were processed

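Poly(A) RNA of longissimus dorsi was sequenced as 2 groups of 4 libraries. The deposited table holds gene counts and FPKM values per library, per the file headers. The submitters' processing notes name FastQC, StringTie, DESeq2 and the build Sscrofa11.1; the sources used here give neither aligner nor strand setting. Counts were tested with edgeR 4.0.16 (quasi-likelihood, TMM scaling, no covariate, 9821 genes at a mean FPKM of at least 1, Benjamini-Hochberg over all of them, 95% intervals). Alternatives used DESeq2 1.42.0, limma 3.58.1 on log2(FPKM + 1) and log2(FPKM + 0.1), other scalings and filters, left-out libraries and a replicate block. The scripts were tested on simulated data. Depths were 53471667 to 60629098 counts, and intervals cover the spread between libraries. Shares and correlations used exact permutation (70 assignments of libraries for shares).

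Members and gene lists were chosen with earlier results of these data known. Library values are given for up to 2 genes a role with the smallest p, the 3 highest and 3 lowest members and the gene pairs; up to 3 genes are named from other lists. Values outside this rule (TOMM22, TIMM21, GRPEL2, TIMM10, TIMM13, TOMM7 and DDIT3) were chosen after they were seen. The same holds for the rows at TIMM23B, GRPEL1, TIMM9, TOMM5 and TOMM6, which are not members. Pairs with GRPEL1 or TIMM23 were left out, since neither has a row by name. Of the gene symbols, 128 came from the gene name table. Sequences were not used here.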

Additional observations from a re-analysis of the deposited data

Results flagged for a closer look

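TIMM13, a small TIM chaperone, had 3.93 FPKM in control 1, apart from the other control libraries at 2.85 to 2.99 FPKM. The share of TIMM8A in the summed FPKM of TIMM8A and TIMM8B was 3.95% in control 2, apart from the other control libraries at 5.47% to 5.71%. In each case 1 library lay far from the other 3 of its group. In all 60 groups of 4 values were looked at and 2 stood out in this way, where chance gives about 1 in 20.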

How the results depend on the processing

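No member passed an adjusted p of 0.05 under any of the alternatives, and the smallest adjusted p was 0.115 (TIMM17B without melatonin 4, where edgeR called 15 of all genes). The count of 3 members at an unadjusted p under 0.05 became 1 at a mean FPKM of at least 5. That setting tested 17 members and left out TOMM40L, at a mean of 3.60 FPKM. The count was 0 with limma at either pseudocount, 0 with the replicate block and 0 without melatonin 1 and 3 together. With 1 library left out it was 0 to 6. The median log2 fold change of the members, -0.19, ranged over -0.27 to -0.14 with 1 library left out. It was -0.09 and -0.10 with limma, and -0.12 without melatonin 1 and 3.

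Signs turned for 7 members, in 34 of 459 values, and for 19 members in none. At a mean FPKM of at least 5, log2 fold changes became 0.014 for HSPD1, 0.031 for TIMM22, 0.028 for TIMMDC1 and 0.014 for TOMM20. With limma on log2(FPKM + 1) and log2(FPKM + 0.1) they became 0.061 and 0.062 for HSPD1, 0.0089 and 0.0099 for TIMM21, 0.062 and 0.075 for TIMM22, 0.062 and 0.077 for TIMMDC1, and 0.063 and 0.066 for TOMM20. Without melatonin 1 and 3 they became -0.11 for GRPEL2, 0.10 for TIMM22 and 0.10 for TIMMDC1. With 1 library left out they ranged over -0.12 to 0.037 for HSPD1, -0.044 to 0.17 for HSPE1, -0.11 to 0.11 for TIMM22, -0.13 to 0.11 for TIMMDC1 and -0.13 to 0.061 for TOMM20. The cause was not tested.

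The TIMM17A share difference was -3.73 percentage points without melatonin 1 and 3, and -1.95 to 2.52 with 1 library left out. It was -0.117 to 0.583 for TIMM8A and -1.15 to 2.34 for HSPE1. The correlation of HSPD1 and HSPE1 was 0.52 to 0.88 with 1 library left out. It was 0.88 without control 3 (exact permutation p = 0.0131).

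Libraries with the same replicate number correlated by 0.18, 0.07, 0.17 and -0.03 in their deviations from the group means. Melatonin 1 and melatonin 3 correlated best with the control library of their own number, while melatonin 2 and melatonin 4 did not. The labels do not name a pairing, and these correlations cannot decide whether there was one. No member had fewer than 178 counts in a library, and the common biological coefficient of variation over all genes was 28.0%. The shares of counting error and of spread between libraries in each member were not separated.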

Other observations

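Inner membrane scaffolds and proteases, which shape and prune what the import machinery delivers, held more genes below control than above it, and none passed the test. Of 6 MICOS genes, which hold cristae junctions, 5 lay below control in edgeR and 4 on log2(FPKM + 1), with a median log2 fold change of -0.28. MICOS13 had 14.1, 14.5, 14.9 and 11.3 FPKM in melatonin pigs, against 20.6, 15.0, 17.6 and 15.0 FPKM in control pigs. Its groups did not overlap, and its log2 fold change was -0.40 ± 0.15 (SE), with an adjusted p of 0.453 in edgeR. Of the 6 MICOS genes, 1 was thus lower without overlap in FPKM and 0 higher, against 1.07% and 1.13% of all genes. Of 11 mitochondrial proteases and prohibitins 9 lay below control in edgeR and 8 on log2(FPKM + 1), with a median of -0.15. AFG3L2, a subunit of the matrix AAA protease, averaged 12.8 ± 1.14 FPKM in melatonin pigs and 15.9 ± 1.15 FPKM in control pigs (SD, n = 4 each), with a log2 fold change of -0.39 ± 0.13 (SE) and an adjusted p of 0.440 in edgeR. PARL, a rhomboid protease of the inner membrane, averaged 7.36 ± 0.617 FPKM in melatonin pigs and 8.84 ± 1.23 FPKM in control pigs (SD, n = 4 each), with a log2 fold change of -0.34 ± 0.13 (SE) and an adjusted p of 0.453 in edgeR.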
